A study of Mus musculus with 24 samples.

Results

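Hmgb1, Hmgb2 and Hmgb3 are the genes of the small family of high mobility group box proteins followed here, 3 of 34039 rows in the RNA count table of mouse amygdala nuclei. Of 271433 peaks of open chromatin in the same series, 12 lay inside one of these genes or within 10 kb of it. Hmgb1 was selected on these same counts, because its RNA was higher in the DBA strain in inhibitory neurons but not in excitatory neurons, and Hmgb2 and Hmgb3 were added as its relatives. The Hmgb1 values in neurons are therefore given as a description without a test. Tests are given for Hmgb1 outside neurons, for Hmgb2 and Hmgb3, for other gene lists and for chromatin.

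HMGB proteins are abundant chromatin proteins that bind DNA through paired HMG boxes without strong sequence preference and bend it, which eases the assembly of other factors. HMGB1 is made in nearly all cells, whereas HMGB2 is known mainly from dividing and progenitor cells and HMGB3 from embryonic tissue and stem cells. Outside the cell HMGB1 acts as an alarm signal: after release from stressed or dying cells, neurons and glia included, it binds receptors such as RAGE and TLR4 and can set off inflammation.

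The tissue was microdissected amygdala of adult male mice of 2 inbred strains, BL6 and DBA, from Jackson Laboratories, taken at 10 to 16 weeks of age with no treatment named. Each strain had 2 libraries of single-nucleus RNA and 2 of single-nucleus ATAC, and a library pooled tissue of about 2 animals. Nuclei for RNA were sorted with a target of about 75% NeuN-positive (neuronal) and 25% NeuN-negative nuclei, while nuclei for ATAC were sorted on the DNA dye 7-AAD without NeuN. Of the 24 samples, the 16 of DNA methylation in 8 strains were not used. The authors had assigned nuclei to 22 cell types and summed their counts by type and library. The excitatory and inhibitory types held 43.7% to 69.3% of the nuclei in the RNA libraries and 97.0% to 98.2% in the ATAC libraries. Values over all nuclei therefore depend on shares that varied between libraries. The labels do not say that same-numbered libraries of the strains share a day or a batch.

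Values are given as CPM, the share of a library's or class's counts that falls on the gene, scaled to 1000000, and stand for library 2 and then library 3 of each strain, as the count tables number them. Differences are DBA minus BL6 on the log2 scale, and a gene or peak is called when its adjusted p is under 0.05. With 2 libraries per strain, p-values measure only the spread between those libraries. RNA libraries held 30693629 to 66304405 counts from 2867 to 8079 nuclei, and ATAC libraries held 66535381 to 86927891 counts. DBA library 2 stood apart in RNA depth, with 11208 counts per nucleus against 6935 to 8207 in the other three. The strains were also counted against different gene names: 7903 rows were counted only in DBA and 1294 only in BL6. For such rows, differences in gene models and differences between strains cannot be told apart. Rows counted in both strains, Hmgb1 included, are under the same limit wherever the gene models differ. In a sum over nuclei, fewer expressing cells and less RNA per cell cannot be told apart either. The shares of all genes called that stand beside the gene lists below include rows counted in a single strain. With only genes counted 10 or more times in each strain tested, 9.67%, 8.62% and 8.25% were called in excitatory, inhibitory and non-neuronal sums. The tested list members, linker histones apart, were all among those genes.

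On the mouse build GRCm38.p6 (mm10), Hmgb1 lies at chr5:149046702-149053057 on the minus strand, Hmgb2 at chr8:57511843-57515999 and Hmgb3 at chrX:71555917-71560673, per RefSeq. An ATAC peak covered the annotated start of each gene: chr5:149051194-149053613 for Hmgb1, which spans both of its annotated starts, chr8:57510917-57512982 for Hmgb2 and chrX:71555340-71557405 for Hmgb3. The 250 bases before the start, all inside these peaks, are shown because the accessibility described further on was measured over them and because they share a feature across the family. They come from RefSeq on GRCm38.p6, read 5′ to 3′ on the strand of the gene, with each CCAAT box, the pentamer to which NF-Y binds, in capitals. The windows are chr5:149053058-149053307 on the minus strand for the upstream start of Hmgb1, chr8:57511593-57511842 on the plus strand for Hmgb2 and chrX:71555667-71555916 on the plus strand for Hmgb3.

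Hmgb1: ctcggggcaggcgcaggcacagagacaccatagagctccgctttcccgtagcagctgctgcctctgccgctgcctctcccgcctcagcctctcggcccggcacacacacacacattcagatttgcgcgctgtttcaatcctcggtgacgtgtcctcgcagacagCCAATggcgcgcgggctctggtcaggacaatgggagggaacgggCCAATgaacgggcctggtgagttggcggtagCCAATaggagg

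Hmgb2: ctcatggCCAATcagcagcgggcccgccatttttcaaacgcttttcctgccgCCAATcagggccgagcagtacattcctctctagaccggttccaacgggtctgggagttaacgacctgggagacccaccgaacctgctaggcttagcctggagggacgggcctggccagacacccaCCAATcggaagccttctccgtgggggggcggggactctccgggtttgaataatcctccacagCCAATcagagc

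Hmgb3: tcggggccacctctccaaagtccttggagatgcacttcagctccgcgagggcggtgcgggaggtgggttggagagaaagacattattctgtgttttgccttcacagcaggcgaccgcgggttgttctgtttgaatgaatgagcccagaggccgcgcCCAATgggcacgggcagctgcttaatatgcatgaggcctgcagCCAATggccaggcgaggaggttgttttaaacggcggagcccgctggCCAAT

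All 3 genes carried several CCAAT boxes in the window shown, 3 in Hmgb1, 4 in Hmgb2 and 3 in Hmgb3, every one on the strand of the gene. Of 32851 windows of the same length before 27025 genes, 2.79% held 3 or more CCAAT on either strand and 0.84% held 4 or more. The GC box GGGCGG, counted on either strand, was found 0 times before the upstream start of Hmgb1 and 1 time before Hmgb2 and Hmgb3, and 32.7% of all windows held at least 1. The TATA box TATAAA was found in none of these 3 windows and in 12.4% of all windows. The GC content was 63.6% for Hmgb1, 60.4% for Hmgb2 and 58.8% for Hmgb3, against a median of 52.4% over all windows. The window before the downstream start of Hmgb1, chr5:149051617-149051866, differed from the one shown: it held 0 CCAAT and 4 GC boxes at a GC content of 78.8%, and 4.09% of all windows held 4 or more GC boxes. These matches describe letters in the window and say nothing of binding.

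In the sum over inhibitory neurons, Hmgb1 RNA was 2.01 times as high in DBA as in BL6. It stood at 70.5 and 66.0 CPM in the BL6 libraries and at 135 and 139 CPM in the DBA libraries, resting on 674 to 3021 counts per library. Both DBA libraries lay above both BL6 libraries: 68.3 ± 3.19 CPM in BL6 and 137 ± 2.89 CPM in DBA (SD, n = 2), a difference of 1.02. The choice of the gene used these values, so nothing is read from the size of the gap.

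In excitatory neurons the order was the other way round and the gap small. Hmgb1 stood at 78.2 and 73.5 CPM in BL6 and at 61.7 and 63.9 CPM in DBA, a difference of -0.25. The libraries did not overlap here either. The difference in inhibitory neurons exceeded that in excitatory neurons by 1.27 on the log2 scale, which is the contrast that chose the gene. Over all nuclei together Hmgb1 was at 82.1 and 82.8 CPM in BL6 and at 96.6 and 97.8 CPM in DBA, a value that blends the opposite differences of the classes.

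All 8 inhibitory types that the authors named had both DBA libraries above both BL6 libraries for Hmgb1. Of 7088 genes tested in all 8 of these types, 2.43% showed that pattern, but the choice of Hmgb1 used these values and nothing is read from the count. The types differed widely in size of difference, from 0.54 in Inh-Tshz1 to 2.34 in Inh-Lamp5.

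**Figure D1:**
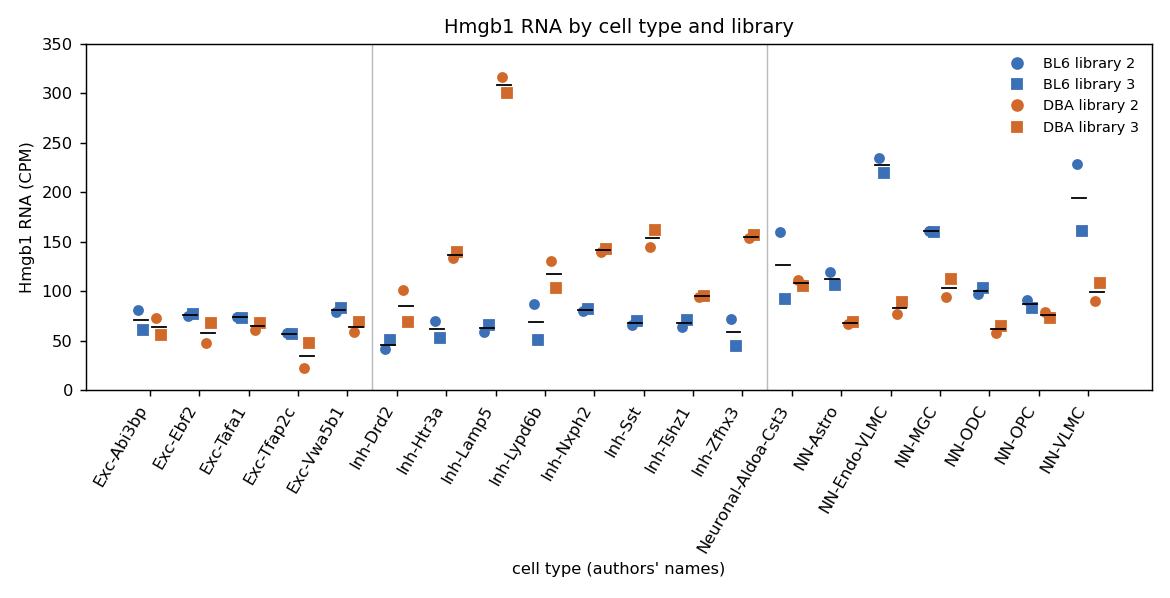
Hmgb1 RNA in CPM (vertical axis, from 0) in the 20 tested cell types (horizontal axis, excitatory types left, inhibitory types in the middle, the others right), with a point for each library, circles for library 2, squares for library 3 and a short black line at each strain's mean. DBA lies above BL6 in all 8 inhibitory types and below it in all 6 non-neuronal types, and the DBA points of Inh-Lamp5, at 316.5 and 300.4 CPM, are the highest.

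Inh-Lamp5, named after a marker of neurogliaform-type interneurons, had the widest gap. Hmgb1 there was at 58.7 and 66.3 CPM in BL6 and at 316.5 and 300.4 CPM in DBA, from 51 and 30 counts in 90 and 46 nuclei and from 154 and 140 counts in 29 and 51 nuclei. The type is small, and its DBA libraries stood close to each other. The summed CPM of 4 inhibitory markers (Gad1, Gad2, Slc32a1 and Dlx6os1) was 1861 and 1610.1 in BL6 and 2174 and 2483 in DBA in this type, with none of the 4 called by edgeR. Without Inh-Lamp5, the difference of the inhibitory sum was 0.96.

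Inh-Zfhx3, Inh-Sst and Inh-Htr3a followed. In Inh-Zfhx3 Hmgb1 was at 72.2 and 44.6 CPM in BL6 and at 153 and 157 CPM in DBA, a difference of 1.30. In Inh-Sst, whose name marks somatostatin interneurons, it was at 65.5 and 69.6 CPM in BL6 and at 145 and 162 CPM in DBA, a difference of 1.21. In Inh-Htr3a it was at 70.2 and 52.9 CPM in BL6 and at 134 and 140 CPM in DBA, a difference of 1.14. The BL6 libraries were the more scattered in Inh-Zfhx3 and Inh-Htr3a and the DBA libraries in Inh-Sst.

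The remaining inhibitory types had smaller or less precise gaps. Inh-Nxph2 had 79.6 and 82.0 CPM of Hmgb1 in BL6 and 140 and 143 CPM in DBA (0.83), with little scatter in either strain. Inh-Tshz1 had 64.3 and 71.2 CPM in BL6 and 94.4 and 95.4 CPM in DBA (0.54), the smallest difference of the 8. Inh-Drd2, named after the dopamine receptor of indirect-pathway spiny neurons, had 41.9 and 50.3 CPM in BL6 and 101 and 69.0 CPM in DBA (1.01), the last from only 10 counts. Inh-Lypd6b had 86.8 and 50.4 CPM in BL6 and 131 and 104 CPM in DBA (0.66), with wide scatter in BL6.

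The 5 tested excitatory types had differences between -0.56 and -0.15, and in 4 of them both DBA libraries were below both BL6 libraries. Of 4775 genes tested in all 5 types, 8.86% were below in 4 or more. The choice of Hmgb1 used its excitatory values too, so nothing is read from this count. Exc-Tafa1 had 74.4 and 73.0 CPM of Hmgb1 in BL6 and 60.8 and 68.1 CPM in DBA, and Exc-Vwa5b1 had 79.5 and 82.9 CPM in BL6 and 58.6 and 68.4 CPM in DBA. Exc-Ebf2 had 75.3 and 76.5 CPM in BL6 and 47.5 and 68.0 CPM in DBA. These 3 types were lower in DBA by less than the inhibitory types were higher. Exc-Tfap2c had 57.9 and 56.5 CPM in BL6 and 22.0 and 47.2 CPM in DBA, the lowest value resting on 4 counts. In Exc-Abi3bp the strains overlapped, with 81.1 and 60.7 CPM in BL6 and 73.4 and 55.3 CPM in DBA. Exc-Strip2, too small to test, had 2 to 89 counts of Hmgb1 per library and 58.7 to 122 CPM with no order by strain.

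The markers of each neuronal class were present in both strains, though their sums stood apart by strain, and oligodendrocyte markers within the classes differed too. In inhibitory neurons the 4 inhibitory markers summed to 649.7 and 669 CPM in BL6 and to 640.1 and 616 CPM in DBA, with 1 of the 4 called lower, and 4 excitatory markers (Slc17a7, Slc17a6, Neurod6 and Tbr1) summed to 13.1 to 18.5 CPM in BL6 and 13.5 to 13.9 CPM in DBA. Oligodendrocyte markers (Mbp, Mog, Mobp and Opalin) summed to 58.0 to 59.6 CPM in BL6 and 37.5 to 39.9 CPM in DBA in the same class, with 3 of 4 called lower by edgeR's quasi-likelihood test. Astrocyte markers summed to 85.6 to 88.3 CPM in BL6 and 65.6 to 65.7 CPM in DBA, with 1 of 5 called lower. In Inh-Lamp5 the oligodendrocyte markers were at 51.8 to 59.6 CPM in BL6 and 18.5 to 23.6 CPM in DBA. Within excitatory neurons the 4 excitatory markers summed to 210 and 248 CPM in BL6 and 262 and 272 CPM in DBA, with 0 of 4 called. The oligodendrocyte markers there were at 71.6 to 76.3 CPM in BL6 and 61.1 to 67.5 CPM in DBA, with 1 of 4 called lower. The part of these marker differences in the Hmgb1 values was not tested.

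Outside neurons Hmgb1 fell. In the non-neuronal sum it was at 115 and 112 CPM in BL6 and at 70.7 and 73.7 CPM in DBA. The libraries of each strain stood close together and the strains well apart, 113 ± 2.17 CPM against 72.2 ± 2.13 CPM (SD, n = 2). The log2 difference was -0.54 (SE 0.11), with an adjusted p of 0.00373 by edgeR's quasi-likelihood test with Benjamini-Hochberg adjustment. In this comparison 20% of 19085 genes were called, 6.51% lower and 13.5% higher. The call was lost without DBA library 2 (-0.51, adjusted p 0.0705 by the same test).

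**Figure D2:**
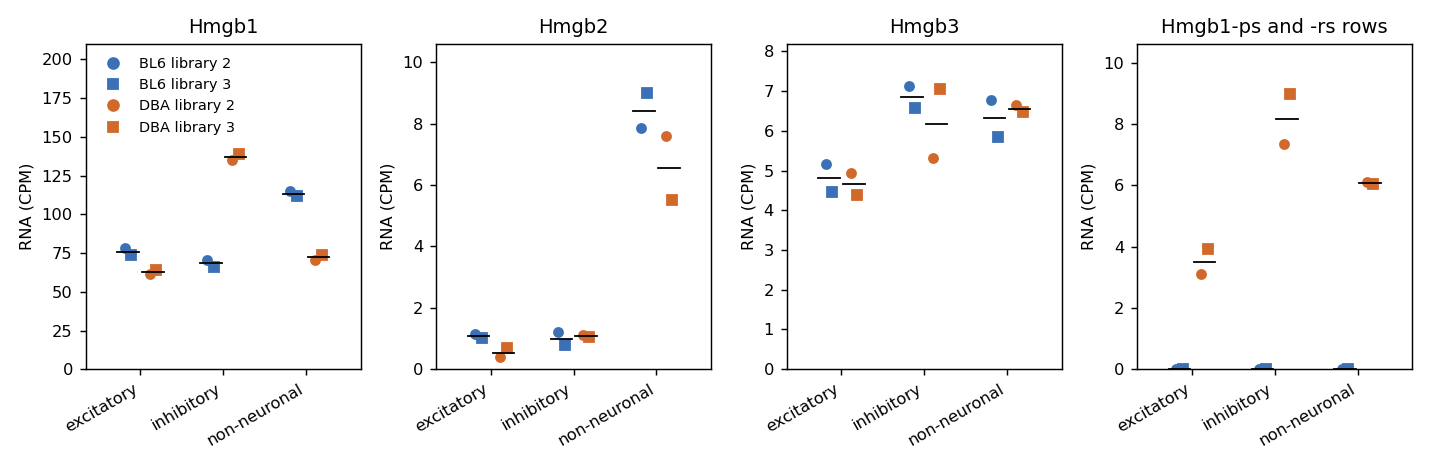
RNA in CPM (vertical axes, each from 0 on its own scale) of Hmgb1, Hmgb2, Hmgb3 and the sum of the 9 rows named as Hmgb1 copies, described further on, in excitatory, inhibitory and non-neuronal sums, with a point for each library and a short black line at each strain's mean. Hmgb1 is higher in DBA in inhibitory neurons (68.3 to 137 CPM) and lower in the other sums, the strains overlap for Hmgb3 in all 3 sums and for Hmgb2 in inhibitory neurons, and the copy rows are at 0 in both BL6 libraries.

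All 6 tested non-neuronal types had both DBA libraries below both BL6 libraries for Hmgb1, a pattern shown by 4.19% of the 2532 genes tested in all 6. Of the 6, 2 passed the test, where 4.86% of all tests in these types were calls in that direction. In NN-Astro, the astrocytes, Hmgb1 was at 119 and 106 CPM in BL6 and at 66.6 and 68.7 CPM in DBA, a difference of -0.60 (SE 0.13, adjusted p 0.00219 by edgeR's quasi-likelihood test). This call was kept under each alternative run. In NN-ODC, read here as mature oligodendrocytes, Hmgb1 was at 97.5 and 103 CPM in BL6 and at 57.9 and 65.0 CPM in DBA, a difference of -0.56 (SE 0.19, adjusted p 0.0434 by the same test). That call was not firm: it was lost with DESeq2 (adjusted p 0.380) without any 1 library (adjusted p 0.0759 to 0.290) and with the copy rows described below joined (0.0617).

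The remaining 4 tested non-neuronal types did not pass the test, though their libraries kept the same order. NN-MGC, read as microglia, had 161 and 160 CPM of Hmgb1 in BL6 and 94.6 and 113 CPM in DBA (-0.59, adjusted p 0.0693 by edgeR). NN-OPC, read as oligodendrocyte precursors, had 91.0 and 82.8 CPM in BL6 and 79.2 and 72.8 CPM in DBA (-0.13, adjusted p 0.738 by edgeR), so the strains came close to each other there. NN-VLMC, read as vascular leptomeningeal cells, had 228 and 161 CPM in BL6 and 89.7 and 108 CPM in DBA (-0.83, adjusted p 0.487 by edgeR) from 14 to 62 counts. NN-Endo-VLMC had 235 and 220 CPM in BL6 and 77.5 and 89.1 CPM in DBA (-1.33, adjusted p 0.0924 by edgeR) from 10 to 39 counts. NN-Endo-SMC-Peri, too small to test, had 38 and 30 counts of Hmgb1 in BL6 and 0 and 6 in DBA. In NN-Endo-VLMC the endothelial and mural markers Cldn5, Flt1, Rgs5 and Vtn were at 0 in all 4 libraries. The remaining endothelial marker, Pecam1, gave 0 CPM in BL6 and at most 8.91 CPM in DBA, so these markers were at or near 0 in a type whose name holds endothelial cells. Of the leptomeningeal markers, Slc6a13 was at 0 in all 4 libraries. The others, Col1a2 and Dcn, together gave 307 and 338 CPM in BL6 and 210 and 294 CPM in DBA. Markers of other cells, too low to test for the most part, also stood apart by strain in NN-Endo-VLMC. Inhibitory markers were at 18.1 and 28.2 CPM in BL6 and 71.9 and 134 CPM in DBA, oligodendrocyte markers at 54.2 and 169 CPM against 22.1 and 17.8 CPM, precursor markers (Pdgfra, Cspg4 and Vcan) at 54.2 and 39.5 CPM against 16.6 and 8.91 CPM, and astrocyte markers at 1121 and 479 CPM against 387 and 409.8 CPM. In NN-VLMC oligodendrocyte markers were at 143 and 242 CPM in BL6 and 40.4 and 139 CPM in DBA. Their part in the Hmgb1 values of these types was not tested.

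Markers moved with strain in these nuclei too. In the non-neuronal sum, oligodendrocyte markers totalled 1794 and 1372 CPM in BL6 and 1135 and 1009.7 CPM in DBA, microglial markers (Csf1r, Cx3cr1, C1qa, C1qb and P2ry12) 727 and 586 CPM against 479 and 406 CPM, and astrocyte markers 2464 and 3027 CPM against 2829 and 3075 CPM. Endothelial and mural markers totalled 107 and 128 CPM in BL6 and 67.2 and 36.9 CPM in DBA, with 1 of 5 called lower, and excitatory markers 36.1 and 28.9 CPM against 15.2 and 22.8 CPM, with 1 of 4 called lower. Within NN-Astro the astrocyte markers were at 5430 and 5923 CPM in BL6 and 5332 and 5443 CPM in DBA, while oligodendrocyte markers were at 105.6 and 89.3 CPM against 34.9 and 34.1 CPM, 2 of the 3 tested called lower. Microglial markers in NN-Astro were at 148 and 112 CPM against 113 and 104 CPM, 3 of 5 called lower. Their part in the Hmgb1 difference was not tested. With cell types weighted equally in place of summed, the non-neuronal level was 155 and 139 CPM in BL6 and 77.6 and 86.1 CPM in DBA, the inhibitory level 67.4 and 60.9 CPM against 152 and 146 CPM, and the excitatory level 73.6 and 69.9 CPM against 52.5 and 61.4 CPM.

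Neuronal-Aldoa-Cst3, a type the authors named by genes alone, had 160 and 92.0 CPM of Hmgb1 in BL6 and 111 and 106 CPM in DBA (-0.24, adjusted p 0.896 by edgeR's quasi-likelihood test). The scatter of its BL6 libraries covered the DBA values.

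The order of Hmgb1 levels over the 20 tested types differed between the strains. It is an order of shares of counts, and levels per nucleus were not compared. In BL6 the non-neuronal sum held 3840 and 3938 counts per nucleus, and the neuronal sums held 9930 to 11876. In BL6 the highest means were in NN-Endo-VLMC (227 CPM), NN-VLMC (195 CPM) and NN-MGC (161 CPM) and the lowest in Inh-Drd2 (46.1 CPM), with the 8 inhibitory types among the lower 12 places. In DBA the highest mean was in Inh-Lamp5 (308 CPM), followed by Inh-Zfhx3 (155 CPM) and Inh-Sst (153 CPM), and the lowest in Exc-Tfap2c (34.6 CPM). Most neighbours in these orders did not differ beyond the spread of their libraries: 5 of 19 neighbouring pairs were apart in BL6 and 6 of 19 in DBA. Inh-Lamp5 in DBA was apart from the type below it, and in BL6 NN-Astro was apart from NN-ODC and NN-ODC from NN-OPC.

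Within libraries and over both strains, the log2 difference of Hmgb1 between inhibitory and excitatory neurons was 0.46, and that between non-neuronal nuclei and neurons was -0.03. Both rest on the neuronal values that chose the gene and are given without a test. Each of these averages strains that pointed different ways.

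A further 9 rows of the table carry the names of Hmgb1 pseudogenes or related sequences. They had 0 counts in both BL6 libraries and 182 and 323 in the DBA libraries. If these rows could be counted in BL6, 0 counts over all BL6 nuclei allow up to 0.0309 CPM (3 counts of the total). If they could not, the 0 sets no limit. Hmgb1-ps7, on chromosome 7 within the span of Vmn2r59, had 167 DBA counts, 165 of them in inhibitory neurons. Hmgb1-rs16, within Dnajc13 on chromosome 9, had 153, of which 60 were excitatory, 62 inhibitory and 31 non-neuronal. Hmgb1-ps6, within Senp5 on chromosome 16, had 114, of which 42 were excitatory, 60 inhibitory and 12 non-neuronal. Hmgb1-ps8 had 32, of which 31 were non-neuronal, and Hmgb1-ps5, within the microglial protease gene Ctss on chromosome 3, had 14, of which 13 were non-neuronal. Hmgb1-rs17, Hmgb1-ps2, Hmgb1-ps1 and Hmgb1-ps3 had 12, 10, 2 and 1 counts. Hmgb3-ps, within Fhit, had 3 counts in DBA and 0 in BL6.

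Such rows can share reads with Hmgb1, and rows that lie in another gene can take reads of that gene. How the strains' gene models treated them is not given in the sources used here. Together the 9 rows made 7.35 and 8.98 CPM in DBA inhibitory neurons, 3.10 and 3.91 CPM in excitatory neurons and 6.11 and 6.05 CPM in non-neuronal nuclei. Joined with the row Hmgb1, an alternative added after the data were seen, they gave differences of 1.10 in inhibitory, -0.17 in excitatory and -0.42 in non-neuronal nuclei, the last with an adjusted p of 0.0165 by edgeR's quasi-likelihood test. In microglia the joined difference was -0.22 in place of -0.59, and in NN-Endo-VLMC -0.69 in place of -1.33. In NN-OPC the strains overlapped once joined, at 91.0 and 82.8 CPM in BL6 and 83.2 and 75.3 CPM in DBA. Hmgb4, a family member known from testis that overlaps Csmd2, had 571 counts in BL6 and 588 in DBA in all. It was at 5.23 and 5.98 CPM in BL6 and 5.32 and 6.63 CPM in DBA in inhibitory neurons, where the strains overlapped. Both DBA libraries lay above both BL6 libraries in excitatory neurons (7.75 and 7.35 CPM against 8.81 and 9.64 CPM) and in non-neuronal nuclei (3.97 and 3.03 CPM against 5.43 and 3.99 CPM), and Hmgb4 was not tested here.

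Hmgb2 was higher in non-neuronal nuclei than in neurons in both strains. It stood at 7.85 and 8.98 CPM in BL6 and at 7.60 and 5.50 CPM in DBA there, against 0.387 to 1.20 CPM in either neuronal class. All 4 libraries showed that gap. Non-neuronal minus neuronal was 2.82 (SE 0.19, adjusted p 3.86e-06 by edgeR's quasi-likelihood test), in a comparison that called 71.1% of genes, and leaving out any 1 library gave 2.73 to 2.94. Among the non-neuronal types it was at 9.26 and 10.7 CPM in BL6 and 11.2 and 6.57 CPM in DBA in NN-Astro, at 13.7 and 11.7 CPM against 8.45 and 5.93 CPM in microglia, and at 6.66 and 9.33 CPM against 4.06 and 5.11 CPM in NN-OPC. Mature oligodendrocytes had less, 1.85 and 2.60 CPM against 0.905 and 1.03 CPM, from 1 to 5 counts.

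Between strains Hmgb2 was not called anywhere. In inhibitory neurons it was at 1.20 and 0.784 CPM in BL6 and 1.12 and 1.06 CPM in DBA, a difference of 0.06 (SE 0.38, adjusted p 0.954 by edgeR's quasi-likelihood test) from 8 to 34 counts. In this comparison 23.9% of 21334 genes were called. In excitatory neurons it was at 1.16 and 1.02 CPM in BL6 and 0.387 and 0.699 CPM in DBA, -0.90 (SE 0.43, adjusted p 0.178), where 24.3% of 20883 genes were called. In non-neuronal nuclei the difference was -0.24 (SE 0.26, adjusted p 0.622). The strain difference of inhibitory over that of excitatory neurons was 0.95 (SE 0.55, adjusted p 0.993 by edgeR), in a comparison that called 0.146% of genes. Only NN-Astro (-0.03) and NN-OPC (-0.69) of the 20 types had enough Hmgb2 counts to be tested.

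Hmgb3 was detected in every class and was called between the strains in none. It was at 7.14 and 6.56 CPM in BL6 and 5.32 and 7.05 CPM in DBA in inhibitory neurons, a difference of -0.12 (SE 0.20, adjusted p 0.775 by edgeR's quasi-likelihood test). In excitatory neurons it was at 5.17 and 4.47 CPM against 4.94 and 4.38 CPM, -0.06 (SE 0.23, adjusted p 0.920), and in non-neuronal nuclei at 6.79 and 5.85 CPM against 6.65 and 6.47 CPM, 0.16 (SE 0.25, adjusted p 0.751). The strains overlapped in all 3 sums. Its strain difference in inhibitory over excitatory neurons was -0.04 (SE 0.26), with a range of 2 SE from -0.55 to 0.48.

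Of the 20 types, 9 had enough Hmgb3 counts to be tested and 0 were called by edgeR's quasi-likelihood test, with 0 at an unadjusted p under 0.05 and 0 called by DESeq2. Over all genes and types together 12.8% of tests were calls. The differences ran from -0.50 in Inh-Tshz1 to 0.55 in NN-OPC. Inhibitory over excitatory neurons, Hmgb3 was higher by 0.44 (SE 0.12, adjusted p 0.0159 by edgeR), in a comparison that called 33.5% of genes. The call was lost with DESeq2 (adjusted p 0.0952), without BL6 library 2 (0.0697) and without DBA library 3 (0.105). Non-neuronal minus neuronal was 0.07 (SE 0.13, adjusted p 0.683).

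Accessibility at the Hmgb1 start was close between the strains. The start peak of Hmgb1 was at 68.6 and 70.2 CPM in BL6 and at 69.9 and 67.2 CPM in DBA in inhibitory neurons, with counts up to 2901 per library over the 3 classes. The strains overlapped. The difference was 0.02 with a range of 2 SE from -0.13 to 0.17 (adjusted p 0.961 by edgeR's quasi-likelihood test). In excitatory neurons the peak was at 56.5 and 59.7 CPM in BL6 and at 64.0 and 57.1 CPM in DBA (0.11, range -0.11 to 0.33, adjusted p 0.751). In non-neuronal nuclei, with only 67 to 167 nuclei per ATAC library, it was at 114 and 113 CPM in BL6 and at 98.0 and 106 CPM in DBA (-0.12, range -0.37 to 0.14).

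In Inh-Lamp5, where Hmgb1 RNA differed most, the start peak was at 79.1 and 79.2 CPM in BL6 and at 71.5 and 77.8 CPM in DBA (-0.10, range -0.46 to 0.25). The peak was not called between the strains in this type (adjusted p 0.961 by edgeR's quasi-likelihood test). Over the 16 types tested for ATAC, the differences of this peak lay between -0.19 and 0.14, and over the 8 inhibitory types between -0.17 and 0.11, with both DBA libraries above BL6 in 1 of the 8 and below in 4. The strain difference of the peak in inhibitory over excitatory neurons was -0.09 (adjusted p 0.718 by edgeR), where 0.246% of peaks were called.

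**Figure D3:**
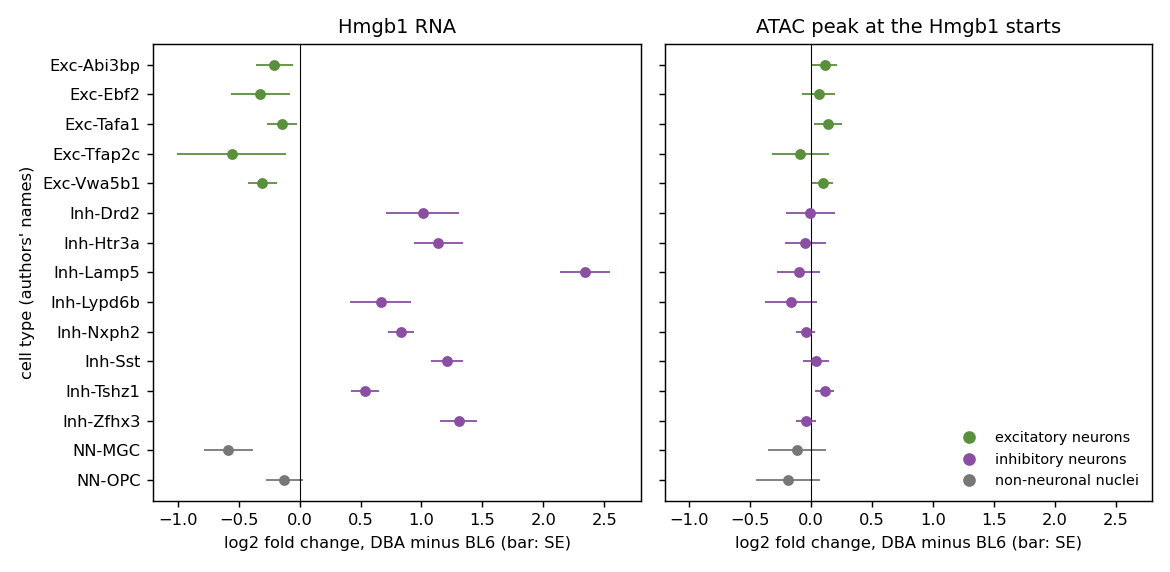
Log2 difference, DBA minus BL6 (horizontal axes, the same scale in both panels), of Hmgb1 RNA (left) and of the ATAC peak over the Hmgb1 starts (right) in the 15 cell types tested in both assays (rows), with bars for 1 SE and colours for the classes. RNA differences run from -0.59 to 2.34, whereas peak differences stay between -0.19 and 0.14.

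The start peaks of the relatives were not called between the strains either. The Hmgb2 peak was at 48.4 and 46.4 CPM in BL6 and 47.1 and 46.7 CPM in DBA in inhibitory neurons (0.02, adjusted p 0.958 by edgeR) and at 36.2 and 38.4 CPM against 39.2 and 39.9 CPM in excitatory neurons (0.13, adjusted p 0.663). The Hmgb3 peak was at 22.1 and 23.5 CPM in BL6 and 23.3 and 23.2 CPM in DBA in inhibitory neurons (0.06, adjusted p 0.865 by edgeR) and at 13.1 and 15.4 CPM against 15.1 and 15.8 CPM in excitatory neurons (0.16, adjusted p 0.591). In non-neuronal nuclei the Hmgb2 peak was at 76.9 and 66.6 CPM against 61.9 and 74.4 CPM, and the Hmgb3 peak at 13.9 and 19.5 CPM against 21.8 and 20.0 CPM from as few as 17 counts.

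**Figure D4:**
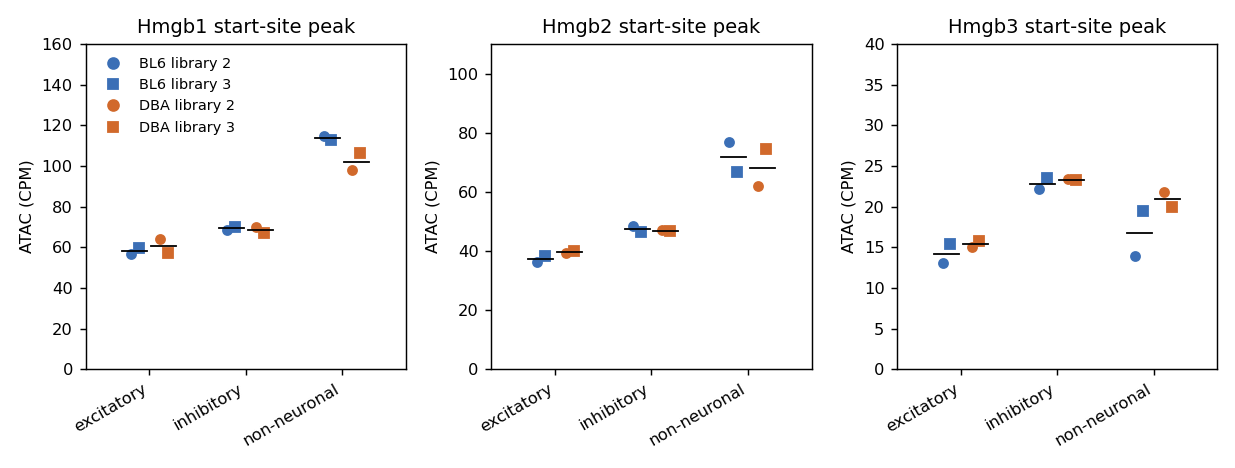
Accessibility in CPM (vertical axes, each from 0 on its own scale) of the start peaks of Hmgb1, Hmgb2 and Hmgb3 in the 3 class sums, with a point for each library and a short black line at each strain's mean. All 3 peaks are higher in inhibitory than in excitatory neurons, and the points scatter most in non-neuronal nuclei, where the Hmgb3 peak rests on as few as 17 counts.

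The other 9 peaks were small and lay outside the genes. Of them 4 lay 766 to 8735 bp from Hmgb1, 4 lay 4133 to 7909 bp from Hmgb2 and 1 lay 7493 bp from Hmgb3. The peak nearest to Hmgb1, chr5:149045593-149045936, was at 0.938 and 0.685 CPM in BL6 and 0.787 and 0.634 CPM in DBA in inhibitory neurons (-0.11, adjusted p 0.948 by edgeR), and chr5:149044914-149045301 was at 0.352 and 0.768 CPM against 1.03 and 0.458 CPM (0.43, adjusted p 0.719). Of chr5:149044151-149044402 and chr5:149037754-149037967 the differences there were -0.17 and 0.18. At Hmgb2, the peaks chr8:57503714-57503934, chr8:57504893-57505501, chr8:57520132-57520440 and chr8:57521264-57521544 had inhibitory differences of -0.44, -0.27, -0.16 and -0.70, the last from 12 to 29 counts, and the Hmgb3 peak chrX:71568166-71568613 had 0.30. The SE of these 9 differences in inhibitory neurons was 0.26 to 0.48, several times that of the start peaks. Differences well beyond these SE could go uncalled at this depth. The one of -0.70 (SE 0.40) had an adjusted p of 0.486 by edgeR.

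Of the 12 peaks, 0 were called between the strains in any class by edgeR's quasi-likelihood test (28 tests, 0 with an unadjusted p under 0.05) and 0 by DESeq2. Over all peaks 4.93% were called in excitatory neurons, 3.47% in inhibitory neurons and, among non-neuronal nuclei, 0.192%. In single types, 0 of 62 tests of these peaks were called and 4 had an unadjusted p under 0.05, where 2.04% of all such tests were calls.

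Between neuron classes the start peaks did differ. Inhibitory over excitatory neurons, the Hmgb1 start peak was higher by 0.29 (SE 0.03, adjusted p 7.95e-11 by edgeR's quasi-likelihood test), the Hmgb2 peak by 0.37 (SE 0.03, adjusted p 1.21e-11) and the Hmgb3 peak by 0.72 (SE 0.05, adjusted p 2.08e-15). Each was higher in inhibitory neurons in all 4 libraries. The peak 7493 bp from Hmgb3 was higher too, by 0.85 (SE 0.20, adjusted p 0.000431 by edgeR), and the other 8 were not called. So 4 of the 12 were called, all higher in inhibitory neurons, in a comparison that called 60.8% of all peaks.

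None of the genes beside Hmgb1 was called higher in DBA in inhibitory neurons. The RNA table held 17 rows within 500 kb, and 3 of them (Gm29815, 4930505K14Rik and Gm8615) were not counted in both strains. In inhibitory neurons 13 were tested, 0 were called higher and 1 lower, with 17% of all genes called higher and 6.82% lower. That gene was Medag, known from fat cell differentiation, at 2.79 and 2.35 CPM in BL6 and 0.770 and 1.29 CPM in DBA (-1.28, adjusted p 0.0151 by edgeR's quasi-likelihood test), a call lost with DESeq2 (adjusted p 0.0842), without BL6 library 2 (0.133) and without DBA library 2 (0.106). The median difference of the 13 was -0.01, against 0.04 for all genes.

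In excitatory neurons 13 neighbours were tested and 3 were called lower, against 7.54% of all genes lower and 16.7% higher. They were Medag (8.98 and 7.26 CPM to 3.58 and 4.57 CPM, -0.97, adjusted p 0.00475 by edgeR), Wdr95 (25.7 and 22.0 CPM to 14.5 and 17.9 CPM, -0.53, adjusted p 0.0183) and the overlapping Gm15997 (-0.52, adjusted p 0.0342). All 3 calls were lost without BL6 library 2 (adjusted p 0.0610, 0.151 and 0.459 by edgeR), those of Wdr95 and Gm15997 also without DBA library 2 (0.119 and 0.0837) and that of Gm15997 without DBA library 3 (0.0930). In non-neuronal nuclei 0 of 10 were called by edgeR, with 0 at an unadjusted p under 0.05, and 0 by DESeq2.

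The nearest coding genes with a moderate level were close between the strains in inhibitory neurons. Katnal1, a katanin subunit homologue that severs microtubules, had means of 21.1 CPM in BL6 and 21.7 CPM in DBA (0.06), and Uspl1, a SUMO protease, of 20.6 and 21.8 CPM (0.10). Ubl3, a ubiquitin-like gene, was at 56.5 and 55.6 CPM (-0.01). Alox5ap, which serves leukotriene synthesis, was at 1.01 and 0.891 CPM (-0.18) and the testis gene Tex26 at 2.02 and 1.54 CPM (-0.42). Among unnamed transcripts and noncoding rows, the differences were -0.55 for Gm15411, -0.44 for 5930430L01Rik, 0.66 for Mm2pr, 0.16 for Gm42788 and 0.00 for 2310047D07Rik, while Gm15408 was too low to test in inhibitory neurons. None of these was called in any class by edgeR.

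**Figure D5:**
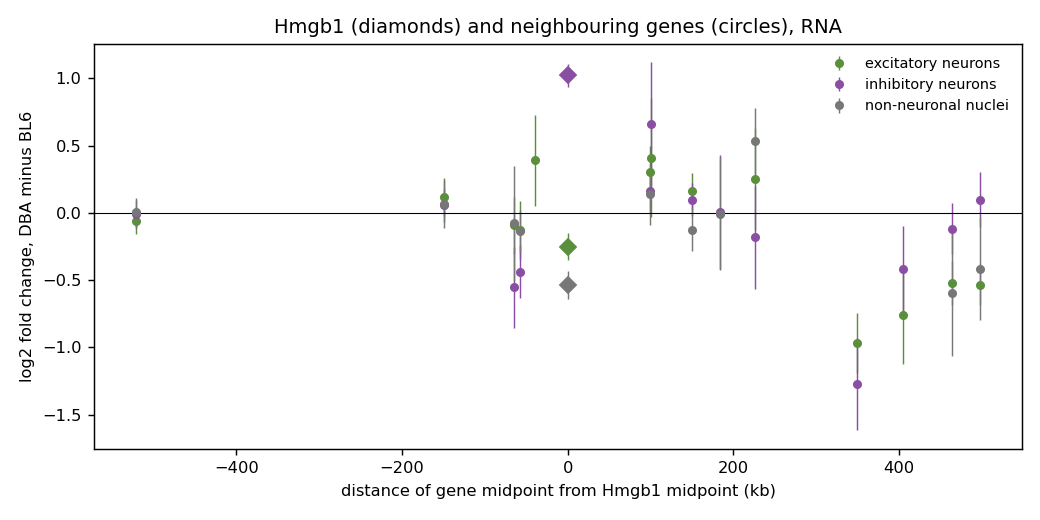
Log2 difference of RNA, DBA minus BL6 (vertical axis), against the distance of gene midpoints from that of Hmgb1 in kb (horizontal axis) for Hmgb1 (diamonds) and its tested neighbours (circles) in the 3 class sums, with bars for 1 SE. Hmgb1 in inhibitory neurons is at 1.02, whereas its neighbours there run from -1.28 to 0.66.

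Other HMG proteins and HMG-box genes were measured as a list of 25, of which 23 had a row. In inhibitory neurons 23 were tested, 0 were called higher and 1 lower, against 17% and 6.82% of all genes, with a median difference of 0.05 against 0.04 for all genes. In excitatory neurons 22 were tested, 0 were called higher and 1 lower, against 16.7% and 7.54% (median 0.01 against 0.04). In non-neuronal nuclei 22 were tested, 1 was called higher and 2 lower, against 13.5% and 6.51% (median 0.09 against 0.03).

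Tox4, a DNA-binding subunit of a phosphatase complex on chromatin, was lower in DBA in all 3 classes. In inhibitory neurons it stood at 74.7 and 70.4 CPM in BL6 and 47.2 and 47.4 CPM in DBA, a difference of -0.60 (SE 0.09, adjusted p 0.000238 by edgeR's quasi-likelihood test), and in excitatory and non-neuronal nuclei the differences were -0.62 and -0.64. In non-neuronal nuclei Tox, known from T cell development, rose from 341 and 388 CPM to 509 and 525 CPM (0.62, adjusted p 0.00194 by edgeR), and the nucleosome-binding Hmgn3 fell from 131 and 138 CPM to 94.5 and 99.1 CPM (-0.36, adjusted p 0.0362). The Hmgn3 call was lost with DESeq2 (0.0894), without BL6 library 3 (0.0772), without DBA library 2 (0.276) and without DBA library 3 (0.158).

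The receptors and adaptors of extracellular HMGB1 were mostly low in neurons, and 11 of 21 could be tested in inhibitory neurons. Of them 2 rose and 0 fell, where 17% of all genes were called higher and 6.82% lower. With only genes counted in both strains tested, as these 11 were, 8.62% were called in either direction. Nothing is read from a count this small. The median was 0.07 against 0.04 for all genes. Tlr4, the receptor itself, stood at 0.424 and 0.196 CPM in BL6 and 1.68 and 1.20 CPM in DBA (1.99, SE 0.46, adjusted p 0.00576 by edgeR's quasi-likelihood test). Its BL6 values were near the floor and rested on few counts. Ly96, which encodes MD-2, the partner that lets TLR4 bind its ligands, stood at 2.01 and 2.16 CPM in BL6 and 4.90 and 4.05 CPM in DBA (1.12, SE 0.26, adjusted p 0.00545). Both DBA libraries lay above both BL6 libraries for each. Tlr4 lost its call without DBA library 2 (adjusted p 0.0604) and Ly96 without BL6 library 2 (0.0527). In the same nuclei the microglial markers, genes of the cells best known for Tlr4, summed to 155 to 169 CPM in BL6 and 164 to 167 CPM in DBA, with 2 of 5 called lower, and their part in the receptor values was not tested.

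In excitatory neurons 0 of 12 tested receptors and adaptors were called by edgeR, with 2 at an unadjusted p under 0.05 and 0 called by DESeq2, where 24.3% of all genes were called, and the median was -0.01. Tlr4 there had means of 0.832 CPM in BL6 and 1.42 CPM in DBA (0.90, adjusted p 0.141 by edgeR). In non-neuronal nuclei 18 could be tested and 1 was called, higher as were 13.5% of all genes. Ptprz1, a receptor phosphatase of glia, rose from 1411 and 1403 CPM to 1739 and 1649 CPM (0.38, adjusted p 0.0320 by edgeR), a call lost with total counts alone (0.118), without DBA library 2 (0.345) and without DBA library 3 (0.189). The other 17 were not called: Tlr4 was at 11.2 and 12.8 CPM in BL6 and 10.2 and 9.36 CPM in DBA (-0.18). Ly96 had means of 7.32 and 5.94 CPM (-0.18), and Ager, which encodes RAGE and was picked for its role after its values were seen, of 1.71 and 0.959 CPM (-0.69). The list's median in these nuclei was -0.18, against 0.03 for all genes.

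Genes that modify or export HMGB1 or form the SET complex made a list of 16 with 15 rows. In inhibitory neurons 15 were tested, 0 were called higher and 2 lower, against 17% and 6.82% of all genes, with a median of -0.02. Nme1, a nucleoside diphosphate kinase with nuclease activity in the SET complex, fell from 31.1 and 26.0 CPM to 15.2 and 20.1 CPM (-0.67, adjusted p 0.00536 by edgeR's quasi-likelihood test), a call lost without BL6 library 2 (0.0656). Hdac1, a histone deacetylase, fell from 32.1 and 35.2 CPM to 24.5 and 26.3 CPM (-0.38, adjusted p 0.0326), which was lost with DESeq2 (0.0920) and without BL6 library 3 (0.110), DBA library 2 (0.181) or DBA library 3 (0.0896). In excitatory neurons 1 of 14 was called, lower as were 7.54% of all genes. It was Hdac1 (-0.56, adjusted p 0.0123 by edgeR), lost without BL6 library 3 (0.0694) and without DBA library 2 (0.0890). In non-neuronal nuclei 2 of 15 were called, both lower, as were 6.51% of all genes. They were Nme1 (30.6 and 23.0 CPM to 11.7 and 13.2 CPM, adjusted p 0.00287 by edgeR) and Set (58.4 and 50.1 CPM to 37.1 and 36.5 CPM, -0.45, adjusted p 0.0322). The Nme1 call was lost without DBA library 2 (0.0565), and that of Set with DESeq2 (0.115) and without BL6 library 2 (0.152), DBA library 2 (0.176) or DBA library 3 (0.185).

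Linker histones, which compete with HMGB proteins for the entry point of DNA on the nucleosome, could hardly be compared by row. Of 13 rows 12 were not counted in both strains, since one strain carries the older and the other the newer symbols. Of their rows 3 were called higher and 3 lower in excitatory neurons, 4 and 3 in inhibitory neurons and, outside neurons, 3 and 5, splits that follow the symbols: H1fx, Hist1h1b, Hist1h1c, Hist1h1d and Hist1h1e against H1f10, H1f5, H1f4 and H1f2. For the inhibitory sum, H1f0, the row counted in both, had a BL6 mean of 1.81 CPM and a DBA mean of 1.38 CPM and was not called in any class by edgeR. Restricted to genes with counts on both sides, the share called was 9.67% for excitatory, 8.62% for inhibitory and 8.25% for non-neuronal sums. With the symbols of each gene joined, an alternative chosen after the data were seen and not tested, H1f2 was at 6.11 and 7.25 CPM in BL6 and 3.15 and 3.59 CPM in DBA in inhibitory neurons, and H1f4 at 3.89 and 4.70 CPM against 2.73 and 5.25 CPM. H1f5 had its DBA libraries above BL6 there, at 0.247 and 0.0980 CPM in BL6 and 0.560 and 0.599 CPM in DBA from 1 to 13 counts, and the strains overlapped for H1f10, at 2.76 and 2.25 CPM against 1.96 and 2.26 CPM. None of the lists had a member called in the contrast of strain differences between inhibitory and excitatory neurons by edgeR or by DESeq2, with 2 of the other HMG genes, 2 of the receptors and adaptors, 1 of the modification and export genes, 0 of the linker histones and 3 of the neighbours at an unadjusted p under 0.05 by edgeR.

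Among 2153 genes tested in all 20 types and counted in both strains, 5 had the pattern of strain differences most like that of Hmgb1. They were Setd7 (Pearson r 0.76), Wwp1 (0.68), Resf1 (0.67), Agpat5 (0.66) and Tspan13 (0.65), each over 20 types. Without Inh-Lamp5, r over 19 types was 0.72, 0.72, 0.56, 0.58 and 0.51. Their own differences in Inh-Lamp5 ran from 0.08 in Agpat5 to 0.72 in Tspan13. Likeness here is of shape and not of size. Over the inhibitory types the differences of Hmgb1 ran from 0.54 to 2.34. Those of Setd7 ran from -0.16 to 0.27, of Wwp1 from 0.27 to 0.68 and of Resf1 from -0.02 to 0.62. Those of Agpat5 ran from -0.34 to 0.13 and of Tspan13 from -0.25 to 0.72. In NN-Astro, where Hmgb1 was at -0.60, the 5 genes were at -0.16, 0.36, 0.12, -0.22 and -1.30 in the same order. In level over the same types, the mean log2 CPM of Snx3 (r 0.81), Zfp106 (0.79), Eif2s2 (0.78), Dars (0.77) and Prrc2c (0.77) came closest to that of Hmgb1. The types of one library share its depth and preparation, so these correlations are descriptions without a p.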

How the data were processed

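Single-nucleus RNA and ATAC were measured in amygdala of BL6 and DBA mice, 2 libraries per strain and assay. The authors deposited counts per gene or peak for every cell type of every library, each the total of its nuclei. Per the submitters' processing notes, RNA was processed with Cell Ranger 6.0.2 and Seurat 4.0.5, ATAC with Cell Ranger ATAC 2.0.0 and Seurat, both on mm10. Filters on nuclei, doublet handling, annotation of cell types, peak calling and the gene models of each strain are not given in the sources used here. The tables number the libraries 2 and 3.

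The deposited counts were summed into excitatory, inhibitory and non-neuronal classes by the authors' type names, and CPM is per 1000000 counts of the sum. A type was tested when each library gave it at least 10 nuclei and 50000 RNA counts or 100000 ATAC counts, which held for 20 of 22 types in RNA and 16 in ATAC. Strains were compared in R 4.3.3 with edgeR 4.0.16 (limma 3.58.1): TMM scaling, filterByExpr with a minimum count of 10, the robust quasi-likelihood F test and Benjamini-Hochberg adjustment over all rows. SE is the log2 difference divided by the root of F. The SE bars drawn for Hmgb1 RNA in neurons are descriptions and no test. Classes were compared within libraries, with the library as a block. DESeq2 1.42.0, other scalings, no filter, genes counted 10 or more times in each strain, a block on library number and leaving out each library were alternatives. Simulated data had 200 genes or peaks changed and the same fixed dispersion for every row. On them the RNA tests recovered 61% of 2-fold changes in inhibitory neurons (20820 genes), 49.5% in excitatory neurons (20421 genes) and 57% in non-neuronal nuclei (18484 genes). The ATAC test recovered 14% in inhibitory neurons (259089 peaks). The dispersion was not estimated from these libraries, so these shares are not the power of the tests on them.

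Named were the rows starting with Hmgb, the called members of each list, neighbours within 500 kb, peaks within 10 kb and the 5 genes most alike in each of 2 patterns. The members, lists and rules were chosen with earlier results of these data known. Of the marker genes fixed to check the cell types, 1 each of the excitatory, inhibitory and oligodendrocyte lists is not reported here and was left out of the sums.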

Additional observations from a re-analysis of the deposited data

Results flagged for a closer look

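Hmgb1 RNA moved in opposite directions in different classes of nuclei. Both DBA libraries were higher than both BL6 libraries in inhibitory neurons (log2 difference 1.02) and lower in excitatory neurons (-0.25). The same held for inhibitory neurons (1.02) against non-neuronal nuclei (-0.54). Neither difference between classes was tested, since the first chose the gene and the second shares its inhibitory values.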

How the results depend on the processing

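Depth and the number of libraries limit these results: single tested types gave as few as 4 counts of Hmgb1 and 0 of Hmgb2, non-neuronal ATAC rests on 67 to 167 nuclei per library, and genes counted under different names in the strains cannot be compared by row. The cause of each change below was not tested.

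With the copy rows joined, the Hmgb1 difference was -0.17 in excitatory and 1.10 in inhibitory neurons, and with cell types at equal weight -0.33 and 1.22. Hmgb3 inhibitory over excitatory was 0.42 with DESeq2 (adjusted p 0.0952). Non-neuronal minus neuronal changed sign for Hmgb1 with total counts alone (0.083) and at equal weight (0.34), and for Hmgb3 at equal weight (-0.19). With total counts alone the start peaks of Hmgb1 and Hmgb2 in inhibitory neurons were at -0.017 and -0.014.

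Leaving out 1 library at a time moved Hmgb1 in non-neuronal nuclei between -0.56 and -0.51 (adjusted p 0.00341 to 0.0705 by edgeR) and its non-neuronal minus neuronal value between -0.22 and 0.16. It moved Hmgb2 in inhibitory neurons between -0.13 and 0.49, and Hmgb3 between -0.34 and 0.041 in inhibitory neurons, -0.15 and 0.068 in excitatory neurons, -0.41 and 0.21 in the contrast of strain differences, 0.34 and 0.53 for inhibitory over excitatory and -0.0044 and 0.12 for non-neuronal minus neuronal. The start peak of Hmgb1 ranged from -0.017 to 0.22 in excitatory and -0.052 to 0.084 in inhibitory neurons, and that of Hmgb2 from -0.025 to 0.068 in inhibitory neurons and -0.14 to 0.059 in non-neuronal nuclei.

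Counts of called list members moved as follows. For modification, export and SET complex they were 3 in excitatory neurons with no filter and with the crossed block, 1 in inhibitory neurons with DESeq2, with genes counted in both strains and with the crossed block, and 1 in non-neuronal nuclei with DESeq2 and with genes counted in both strains. For receptors they were 0 in non-neuronal nuclei with total counts alone and with genes counted in both strains. For neighbours they were 0 in inhibitory neurons with DESeq2. For linker histones they were 0 in each class with genes counted in both strains. For other HMG genes they were 3 in excitatory neurons with no filter and 2 with the crossed block. Without 1 library they ranged in excitatory, inhibitory and non-neuronal nuclei from 0 to 2, 1 to 2 and 0 to 3 (modification), 0 to 1, 1 to 2 and 0 to 2 (receptors) and 0 to 3, 0 to 1 and 0 to 1 (neighbours), and were 2 for other HMG genes in excitatory neurons.

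Over all genes, those counted in both strains gave 1754, 1583 and 1416 calls in excitatory, inhibitory and non-neuronal nuclei against 5065, 5092 and 3825 over all rows. The contrast of strain differences called 145 genes with no filter and 12 with DESeq2 against 33. DESeq2 called 5230 peaks in excitatory and 2781 in inhibitory neurons against 13291 and 9041, and 28 against 668 in that contrast, and 138 against 59 were called in non-neuronal nuclei with no filter. Without 1 library, 2512 to 4624 genes were called in non-neuronal nuclei and 26 to 67 in the contrast, and 6969 to 17331, 4093 to 12948 and 53 to 384 peaks in the 3 classes and 241 to 1211 in the contrast.

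Across features, the deviations of same-numbered libraries from their strain's mean correlated at r from -0.41 to -0.02 in RNA and -0.14 to 0.01 in ATAC. With 2 libraries per strain, these r cannot tell whether same-numbered libraries share a day or a batch. With the replicate block, 4880, 5134 and 3680 genes and 13881, 9854 and 53 peaks were called in excitatory, inhibitory and non-neuronal nuclei. With the numbers crossed, 5391, 4957 and 4220 genes and 14468, 9694 and 97 peaks were called.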
